A study of Mus musculus with 16 samples.

Results

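B16F10 mouse melanoma cells of the TDMa line, transduced with an sgRNA against Nlrc5 (sgNlrc5), were compared as tumours (4 libraries) and as cultures (2 libraries). These 6 libraries, of 16 in the series, were chosen by their labels: the line B16F10-TDMa, the guide sgNlrc5, and a culture or a tumour as the source. The same line with a scramble guide (sgScramble), again 2 cultures and 4 tumours, served as the reference for what growth as a tumour did without the Nlrc5 guide. The other 4 libraries were from the TDM line and were not used here. Cultures grew in DMEM with fetal bovine serum. The series concerns demethylation and activation of Nlrc5, but the labels do not say what TDM and TDMa stand for, which protein the guides direct, or whether a line is 1 clone. Host strain, age, graft site and duration are not in the labels either. Nor do they tell whether each replicate was its own culture or animal, so every p-value here reflects the scatter of these libraries, some of which may be technical.

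Nlrc5 encodes an NLR protein that works in the nucleus as a transactivator of MHC class I genes, their light chain B2m and the genes that load peptides on class I. Class I molecules show peptides of the cell's own proteins to CD8+ T cells. Interferon gamma, released by T cells and NK cells, acts in part through IRF1 and raises the same genes, along with GTPases, immunoproteasome subunits and MHC class II. B16F10 is known as a melanoma with low class I in culture, and its tumours hold host leukocytes and vessels beside the melanoma cells.

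The recovered reads ran from 12183889 to 15898495 over the 6 libraries, a precision at which counting error is small for all but the lowest genes. The 10 most abundant genes took 6.19% to 6.25% of them in culture and 9.88% to 14.1% in tumours. Melanocyte markers were present in all 6: Dct, a melanin enzyme, was at 130162 and 130969 in the cultures and 458464, 669258, 435613 and 485541 in the tumours, in rescaled normalised counts. A rescaled normalised count is the authors' size-factor normalised count after the 6 columns were put on a common scale. Of the defining markers of other cells, Ptprc (leukocytes), Cd3e (T cells), Adgre1 and Csf1r (macrophages), Pecam1 and Cdh5 (endothelium) and Hbb-bs (red cells) were listed in the tumour table and not in the culture table. The fibroblast markers Col1a1 and Pdgfra were listed in both tables. Pdgfra was at 31.6 and 44.2 in the cultures and 20.4, 28.3, 32.05 and 31.7 in the tumours. Ckm (muscle), Krt5 (keratinocytes) and Adipoq (adipocytes) were not listed in the tumour table. In these bulk libraries a tumour value is a mix of melanoma and host cells, and fewer cells of a type cannot be told apart from less RNA per cell. Cultures and tumours come from tables that the authors normalised separately, so the tissue and the table cannot be told apart in the direct comparison.

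The first comparison asked how sgNlrc5 cells grown as tumours differed from the same cells in culture. Interferon, class I, complement and lysosomal genes were higher in tumours, hypoxia and pigment genes were higher too, and replication, mitosis and ribosomal protein genes were lower. Of 12328 genes listed in both tables and tested, 7261 (58.9%) passed at an adjusted p below 0.05, with 3654 higher (29.6%) and 3607 lower (29.3%). The lower genes were 2398 without culture 1 and 2370 without culture 2. Among these, 1850 higher genes (15%) and 946 lower genes (7.67%) also differed by more than 2-fold, so the larger differences were mostly increases. Equal column sums moved the median of all genes by -0.15 and gave 1541 and 1314, and quantile normalisation gave 1501 and 1240. The median absolute log2 difference over all tested genes was 0.52. Each count of higher or lower genes on a list below is to be read beside the 29.6% and 29.3% of all genes. All 4 tumours lay above both cultures in 35.3% of tested genes and below both in 36.3%, so groups without overlap were common and are given below as description. Every log2 difference is tumour minus culture of log2(value + 1). The added 1 makes changes of low genes look smaller, and an error after ± is a standard error unless SD is named.

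**Figure D1:**
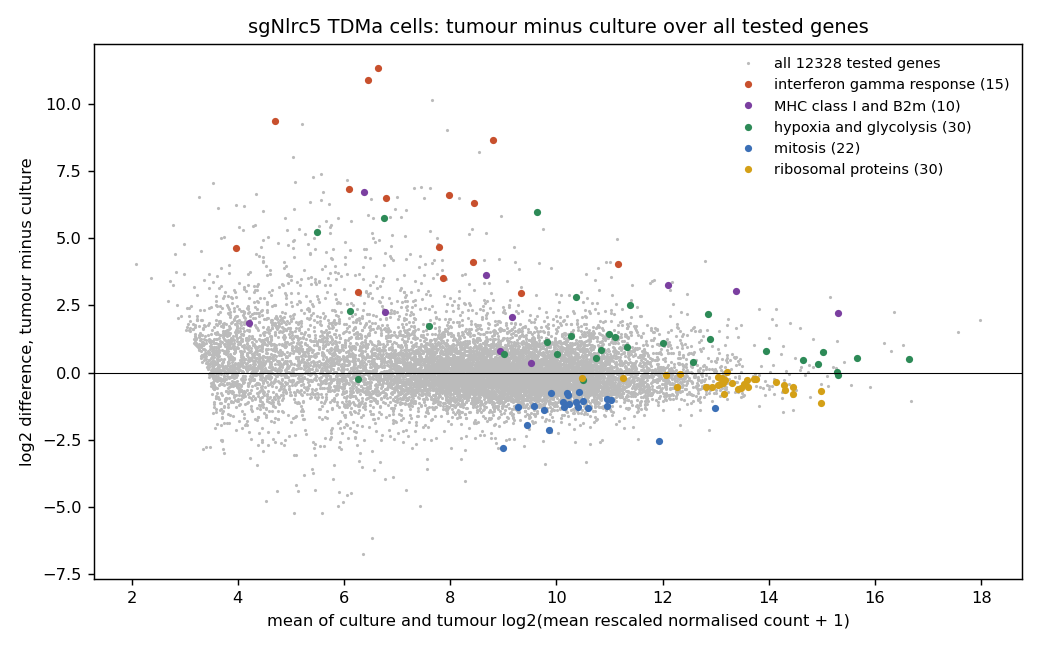
Each point is 1 tested gene, with its mean level on the horizontal axis (log2 scale) and its log2 difference, tumour minus culture, on the vertical axis. The 15 interferon gamma genes and 10 MHC class I genes lie above 0, and the 22 mitosis genes lie below 0.

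Nlrc5 (ENSMUSG00000074151), the targeted gene, was already high in culture with its guide, at 3051 and 3047 in the cultures and 4450.3, 3482, 3701 and 4274 in the tumours. Every tumour lay above both cultures, by a small margin. The log2 difference was 0.38 ± 0.12 (adjusted p = 0.018). With sgScramble the mean was 240.3 in culture and 573 in tumours, and no sgScramble library, the highest at 819, reached a sgNlrc5 culture. The call for Nlrc5 was lost without culture 1 (adjusted p = 0.11), without culture 2 (0.12), with equal column sums (0.23, adjusted p = 0.15), with quantile normalisation (0.054) and with all 12 TDMa libraries in the fit (0.28).

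Most MHC class I genes rose in tumours. Of 21 class I members on the list 10 could be tested, 7 were listed only in tumours and 4 were in neither table. Of the 10 tested, 9 rose (beside 29.6% of all genes), none fell, and the median was 2.24, beside an absolute median of 0.52 over all tested genes. H2-D1, the classical heavy chain of the D locus, stood at 3719.6 and 3731 in the cultures and 31461, 32350.4, 27974 and 30053 in the tumours. The 4 tumours averaged 8.16 times the cultures, a log2 difference of 3.03 ± 0.11 (adjusted p = 2.6e-08). B2m, the light chain that all class I molecules need, stood at 18715 and 18812 in the cultures and 91461, 101066, 70259 and 87818 in the tumours. It rose by 2.21 ± 0.17 (adjusted p = 4.4e-06), again with no overlap. These levels also belong to host cells: the 14 pan-leukocyte genes were all listed in tumours, and the 4 of them listed in both tables summed to 179 to 209 in culture and 3691 to 4260 in tumours. The part of that in the class I difference was not tested.

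Nonclassical class I genes rose as well. H2-T22, whose product is seen by gamma delta T cells, stood at 1388 and 1469.5 in the cultures and 14659.8, 12779, 11444 and 15582 in the tumours and rose by 3.24 ± 0.13 (adjusted p = 5e-08). Its near relative H2-T10 was close to absent in culture, at 4.36 and 10.3, and reached 952, 772, 713 and 884 in tumours (6.73 ± 0.26, adjusted p = 3.9e-08). H2-M3, which presents formylated peptides, stood at 106 and 123 in the cultures and 1738, 1398, 1263 and 1315 in the tumours and rose by 3.62 ± 0.14 (adjusted p = 4e-08). H2-T24 rose by 2.26 ± 0.26 (adjusted p = 5.4e-05) and the lipid-presenting Cd1d1 by 1.85 ± 0.35 (adjusted p = 0.0012). Fcgrt, the heavy chain of the neonatal Fc receptor, rose by 2.07 ± 0.12 (adjusted p = 5.5e-07), and Hfe, which regulates iron uptake, by 0.81 ± 0.15 (adjusted p = 0.0011). Mr1, which presents vitamin B metabolites to MAIT cells, stood at 656 and 624 in the cultures and 682, 914, 754 and 966 in the tumours and missed the threshold at 0.36 ± 0.15 (adjusted p = 0.055). It passed under TMM factors, upper quartile scaling, quantile normalisation, array weights, all 12 libraries, and without tumour 1 (adjusted p = 0.011) or tumour 3 (0.042), and with tumours 1 and 2 left out together, a choice made after seeing the data (0.0097). The H2 genes are a family of near-identical copies, and how the authors' counting split reads between them is not given in the sources used here.

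A further 7 class I genes were listed only in the tumour table, so no fold can be given. H2-K1, the classical heavy chain of the K locus, was at 5192, 3324, 3784 and 3198 in the 4 tumours. H2-T23, whose product Qa-1 engages NK and T cell receptors, was at 10286, 7503, 8739.7 and 12012, and H2-Q4 at 586, 353, 516 and 538.

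The genes that cut, carry and load class I peptides followed. Of 15 tested, 10 rose and 1 fell, with a median of 2.25. Tap1, a subunit of the peptide transporter, stood at 1084 and 1095 in the cultures and 12117, 10951, 9385 and 11669 in the tumours, and rose by 3.33 ± 0.12 (adjusted p = 1.7e-08). Its partner Tap2 was far lower in culture, at 46.9 and 59.2, against 2669, 1887, 1390.1 and 1888 in tumours, a difference of 5.15 ± 0.22 (adjusted p = 6.2e-08). This is 10.1-fold for Tap1 and 35.5-fold for Tap2. The immunoproteasome subunit Psmb9 stood at 436 and 408 in the cultures and 6254, 4449, 5316 and 5548 in the tumours and rose by 3.66 ± 0.13 (adjusted p = 1.8e-08). Psmb8, its companion subunit, was listed only in tumours, at 3727, 2859, 3026 and 3492. The peptide editor Tapbpl rose from 52.5 ± 0.194 to 986 ± 127 (SD, n = 2 and 4), by 4.20 ± 0.14 (adjusted p = 1.5e-08). For each of these genes every tumour lay above both cultures.

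On the list of NLR genes and class II regulators, which also holds Nlrc5, 7 of 12 tested rose and 1 fell. The count that rose was 4 without either culture and with quantile normalisation, and 2 to 3 fell in several settings. Irf1, an interferon-induced activator, stood at 246 and 210.5 in the cultures and 2245, 1666, 1345 and 1997 in the tumours and rose by 2.96 ± 0.18 (adjusted p = 8.2e-07). Nod1, a sensor of bacterial cell wall, rose by 4.18 ± 0.19 (adjusted p = 1.2e-07). Nfya, a subunit of the factor that binds the CCAAT box and works with NLRC5 on class I promoters, fell by 0.60 on the log2 scale, with tumours at 1097, 1103, 1089 and 1072 against 1675 and 1639. Ciita, the class II counterpart of Nlrc5, was listed only in tumours, at 366, 214, 177 and 348.

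**Figure D2:**
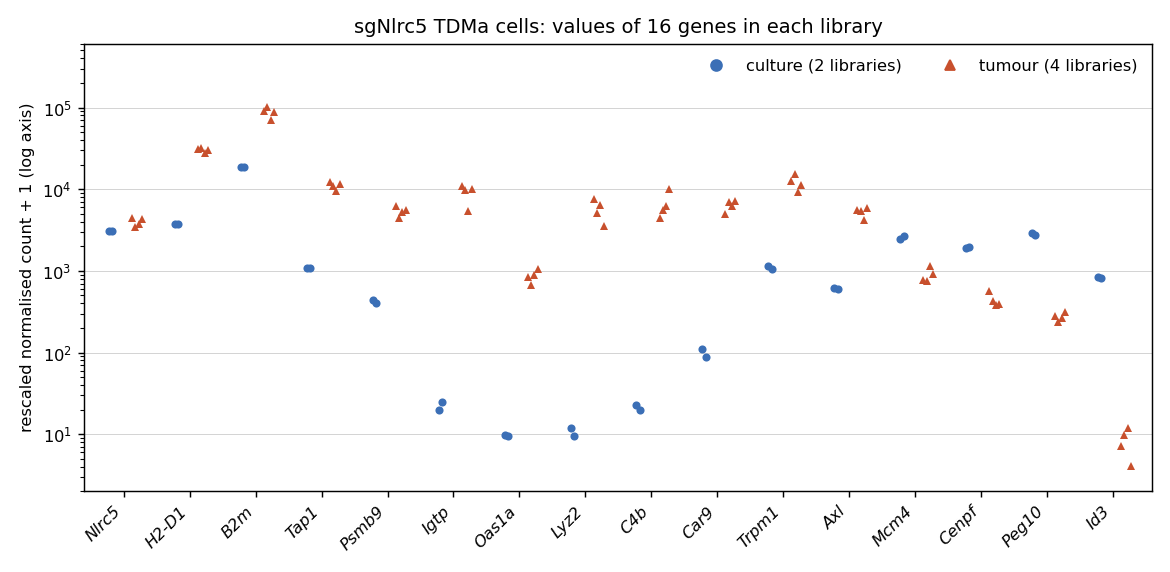
Values of 16 genes in each of the 6 libraries (rescaled normalised count + 1, log axis), with circles for the 2 cultures and triangles for the 4 tumours. Culture and tumour points overlap for none of these genes. The Nlrc5 points lie closest together, and Id3 has the lowest tumour points.

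Of 9 MHC class II genes 6 were listed only in tumours and 2 in both tables. Cd74, the invariant chain, was listed only in tumours and was the most abundant such gene, at 19974, 11588, 12914 and 18878. H2-Aa, H2-Eb1 and H2-Ab1, which form the class II heterodimers, followed at 13043, 7649, 6922 and 11655 for H2-Aa, 10161, 5651, 5394 and 7579 for H2-Eb1 and 9179, 4964, 4745 and 7197 for H2-Ab1. Tumours 1 and 4 were the higher pair for Cd74 and all 3 chains. The 2 members listed in both tables, the peptide exchange genes H2-DMa and H2-DMb1, rose by 6.88 and 4.06 with no overlap.

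The interferon gamma list had the highest median of the lists with 6 or more tested members. All 15 tested members rose, with a median of 6.31, and 9 more were listed only in tumours. Irf1, Cxcl10 and Cd274 belong to this list as well as to others. Igtp, an immunity-related GTPase, stood at 18.5 and 23.5 in the cultures and 11024, 9728, 5445 and 10161 in the tumours and rose by 8.65 ± 0.24 (adjusted p = 7.9e-09). Irgm2, a regulator of that family, stood at 34.9 and 40.4 in the cultures and 3316, 2685, 2364 and 4133 in the tumours, and Gbp2, a guanylate-binding protein, at 25.1 and 23.5 in the cultures and 2760.4, 2206, 1756 and 3241 in the tumours. Both rose, by 6.31 and 6.59. Other GTPases had almost no reads in culture. Gbp7 had 0 reads in both cultures and 878, 592, 411 and 845 in tumours, at least 448-fold higher when the cultures are bounded at 3 reads over the group. Tgtp2 had 2 reads in the cultures together and 3709.8, 3448, 2934 and 5196 in tumours, a ratio with a 95% counting interval of 1040.5 to 31046. Iigp1 also had 2 reads, and 5834, 3945, 3054 and 6012 in tumours (interval 1279.8 to 38183). Tgtp1, a near-identical copy of Tgtp2, was listed only in tumours at 3744, 3259.5, 2822 and 5285, so the split between the copies is uncertain. These intervals and bounds cover counting error only.

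Of the type I interferon list, 28 of 29 tested members rose, none fell, and the median was 3.51. Oas1a, which senses double-stranded RNA, stood at 8.72 and 8.46 in the cultures and 831, 676, 883 and 1040 in the tumours and rose by 6.47 ± 0.18 (adjusted p = 7.9e-09). Xaf1, a partner of XIAP, rose from 16.9 ± 3.91 to 1161 ± 199 (SD, n = 2 and 4), by 6.02 ± 0.19 (adjusted p = 1.3e-08). Trim30a stood at 4.36 and 5.64 in the cultures and 555, 396, 391 and 496 in the tumours. Ifi27 was already present in culture, at 470 and 556 in the cultures and 5282, 5244, 5418 and 6345 in the tumours, and rose by 3.44 ± 0.11 (adjusted p = 1.5e-08). Oas2 had 1 read in the cultures and 1104, 906, 611 and 911 in tumours (95% counting interval of the ratio 310.4 to 68380.5). The nuclear body gene Sp100, which is not on the interferon lists, had 2 reads in the cultures and 679, 456, 464 and 515 in tumours (interval 144 to 4314). No tumour overlapped a culture in any gene named here. The OAS and GBP families also hold close copies. Leukocytes express interferon genes too, and the part of the summed leukocyte genes given above in these differences was not tested.

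Promoter windows show what several of these interferon genes share in sequence. RefSeq windows (GRCm38.p6, matched by symbol, a build other than the GRCm39 of the submitters' processing notes) were found for 11 of the 15 tested interferon gamma members and 20 of the 29 type I members. In the 250 bases before the start site, the core of the interferon-stimulated response element, GAAA followed after any 2 bases by GAAA, searched on both strands with overlapping matches allowed, was in 9 of 13 windows of the interferon gamma list (69.2%). It was in 9 of 25 windows of the type I list (36%), 2 of 7 class I windows (28.6%), 0 of 14 processing windows, and 978 of all 32851 windows (2.98%). The palindrome TTCNNNGAA of a gamma-activated site was in 5 of 13 interferon gamma windows (38.5%), 4 of 25 type I windows (16%) and 7.02% of all windows. A match is a description of letters and not a bound site. The last 150 bases before the start are given below, 5′ to 3′ on the gene's strand, with that core or its reverse complement in capitals. They are shown because the element recurs close to the start of genes with large differences.
Igtp (chr11:58199406-58199555, plus strand): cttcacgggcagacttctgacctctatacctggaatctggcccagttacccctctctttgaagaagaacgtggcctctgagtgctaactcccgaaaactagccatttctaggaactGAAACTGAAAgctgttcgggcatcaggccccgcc
Irgm2 (chr11:58214827-58214976, plus strand): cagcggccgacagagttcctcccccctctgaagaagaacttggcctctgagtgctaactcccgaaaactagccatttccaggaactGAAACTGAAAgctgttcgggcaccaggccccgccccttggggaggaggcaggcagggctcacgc
Tgtp2 (chr11:49064213-49064362, minus strand): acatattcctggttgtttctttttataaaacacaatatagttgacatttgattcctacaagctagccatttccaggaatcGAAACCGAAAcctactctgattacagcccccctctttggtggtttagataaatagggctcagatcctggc
Gbp7 (chr3:142530186-142530335, plus strand): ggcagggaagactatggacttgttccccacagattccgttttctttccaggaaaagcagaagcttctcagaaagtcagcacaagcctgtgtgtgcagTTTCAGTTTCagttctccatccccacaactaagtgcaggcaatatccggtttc
Oas1a (chr5:120907526-120907675, minus strand): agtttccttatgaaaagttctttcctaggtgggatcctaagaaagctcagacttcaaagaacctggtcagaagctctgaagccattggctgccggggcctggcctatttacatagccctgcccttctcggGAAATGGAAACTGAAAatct
B2m (chr2:122147537-122147686, plus strand): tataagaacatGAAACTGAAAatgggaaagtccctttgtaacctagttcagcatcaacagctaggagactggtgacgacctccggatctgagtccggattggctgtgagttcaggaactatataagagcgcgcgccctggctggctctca
In Igtp, Irgm2 and Tgtp2 a TTCNNNGAA match starts 11 bases before the capitals. The core starts 34 bases before the start site in Igtp, 64 in Irgm2, 70 in Tgtp2 and 53 in Gbp7 (as its reverse complement). Oas1a holds 2 overlapping copies, at 20 and 14 bases, and B2m has its copy at 139 bases. The 6 genes shown are among those whose values are given above, from a difference of 2.21 for B2m to 10.86 for Tgtp2.

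Chemokine and complement genes were also higher in tumours. Of 6 chemokine genes tested, 5 rose, and 13 were listed only in tumours, led by Ccl6 at 2274, 1912, 2569 and 1336. Cxcl1 was the 1 chemokine gene listed only in the culture table, and 4 were in neither table. Cxcl10, which attracts activated T cells, stood at 58.9 and 76.1 in the cultures and 1016, 718, 578 and 832 in the tumours and rose by 3.50 ± 0.21 (adjusted p = 6.5e-07). Cxcl16 rose by 5.16 ± 0.57 (adjusted p = 3.9e-05) and the T cell attractant Ccl5, at 62.2 and 60.1 in the cultures and 315, 137, 128 and 193 in the tumours, by 1.55 ± 0.32 (adjusted p = 0.002). All 7 complement genes tested rose, with a median of 4.69. C4b, of the classical pathway, stood at 21.8 and 18.8 in the cultures and 4423, 5600, 6286 and 10023 in the tumours and rose by 8.21 ± 0.25 (adjusted p = 1.3e-08); tumour 4 was the highest. The central component C3 rose by 7.36 ± 0.33 (adjusted p = 1e-07), properdin (Cfp) by 4.69 and the protease C1ra by 3.28. Macrophages also make several complement proteins, and the part of macrophage genes in these differences was not tested. The 3 chains of C1q were listed only in tumours, C1qa at 2641, 1934, 2602 and 1759.6.

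Among NF-kB factors and feedback inhibitors 6 of 12 rose and 2 fell, of which 1 remained lower without culture 1 and none without culture 2. The inhibitor Tnfaip3 (A20) rose by 3.49 ± 0.17 (adjusted p = 2e-07) and Nfkbiz by 1.73 ± 0.14 (adjusted p = 4.4e-06). Of 6 checkpoint genes tested 4 rose. Cd274, which encodes PD-L1, stood at 40.3 and 45.1 in the cultures and 1215, 1166, 865 and 1271 in the tumours and rose by 4.68 ± 0.16 (adjusted p = 1.7e-08). Havcr2 (TIM-3) was at 46.9 and 53.6 in the cultures and 117, 115, 88.8 and 115 in the tumours and rose by 1.10 ± 0.20 (adjusted p = 0.00098). Tnfrsf9 (4-1BB), listed only in tumours, was at 936, 2531, 2377 and 3507, and there tumour 1 was the lowest.

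Genes listed only in the tumour table were described apart, as candidates for host cells. There were 2059, of which 630 are predicted genes, pseudogenes or segments, 1387 had a mean of at least 10 in the 4 tumours, 302 at least 100 and 26 at least 1000. Together they made 1.14% to 1.62% of the summed level of a tumour, highest in tumour 1. Another 410 genes were listed only in the culture table. All 20 T cell genes on the list were in tumours, 19 of them only there. Cd8a, which marks cytotoxic T cells, was at 322, 175, 98.9 and 113, highest in tumour 1, and Il7r at 147, 150.1, 165 and 186. All 12 cytotoxic effector genes were listed only in tumours: Gzmb, a killer granule protease, was at 259, 340.4, 175 and 302 and Prf1, which forms pores, at 176, 208, 114 and 167. Summed T cell genes were 2701 in tumour 1, 1809 in tumour 2, 1148 in tumour 3 and 1477 in tumour 4. Summed genes of the NK cell list followed the same order, from 335 in tumour 1 to 116 in tumour 3. Only 5 of its 12 members were listed: Klrk1, Klrd1, Klre1, Klrc1 and Cd160. The other 7, among them Ncr1 and Klrb1c, were in neither table. Lat, a T cell adaptor that the cultures also held at 15.3 and 7.52, was at 317, 382, 338 and 314.

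Macrophage genes summed higher than any other list of host cells among genes listed only in tumours, at 9961 to 13439. Of 24, 18 were tumour-only, and 5 of the 6 tested rose. Lyz2, the myeloid lysozyme, stood at 10.9 and 8.46 in the cultures and 7632, 5072, 6321 and 3546 in the tumours and rose by 9.0 ± 0.25 (adjusted p = 7.9e-09). Spp1, encoding osteopontin, which both melanoma and myeloid cells make, stood at 79.6 and 51.7 in the cultures and 4000.1, 4098, 3084 and 3544 in the tumours and rose by 5.81 ± 0.17 (adjusted p = 1.1e-08). Fcer1g, the shared signalling chain of Fc receptors, rose by 5.11 ± 0.17 (adjusted p = 1.5e-08) and Cd68 by 2.17 ± 0.15 (adjusted p = 1.6e-06). Spi1, the myeloid factor PU.1, stood at 5.45 and 6.58 in the cultures and 331, 274, 310.4 and 302 in the tumours, and the leukocyte actin bundler Lcp1 at 125 and 157 in the cultures and 2605, 2322, 2428 and 2501 in the tumours. Both rose, by 5.45 and 4.12. The vessel markers Pecam1 and Cdh5, listed only in tumours, were low. Pecam1 was at 31.6, 23.9, 22.9 and 87 and Cdh5 at 7.13, 14.1, 17.4 and 61.4, with tumour 4 the highest in both. The 8 endothelial genes listed in both tables summed to 9319 to 10938 in tumours and 4522 to 4785 in cultures. The globin Hbb-bs was at 366, 333, 642 and 266, highest in tumour 3.

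**Figure D3:**
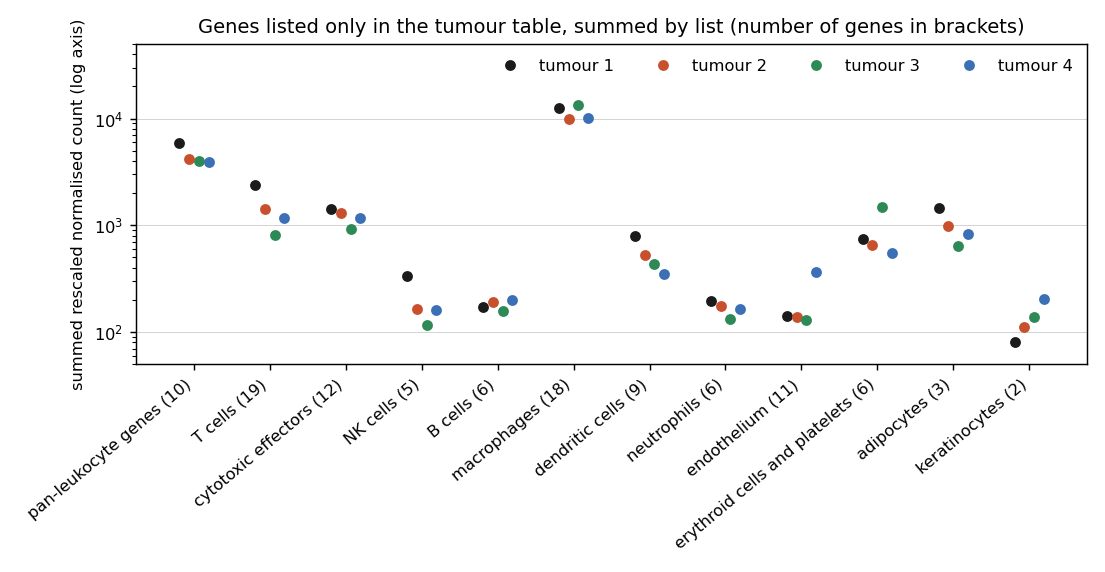
Summed rescaled normalised counts (log axis) of genes listed only in the tumour table, by cell type list, with 1 point for each of the 4 sgNlrc5 tumours and the number of genes in brackets. Tumour 1 is highest for T cell, NK and pan-leukocyte genes, tumour 3 for erythroid and macrophage genes and tumour 4 for endothelial and keratinocyte genes. The keratinocyte sum holds only Dsp and Perp, and 12 of the 15 genes on that list were in neither table.

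Pigment and lineage genes rose in most cases. Of 21 melanocyte genes tested 16 rose, none fell, and the median was 1.02. Trpm1, a channel gene driven by MITF, stood at 1161 and 1046 in the cultures and 12706, 15342, 9292 and 11143 in the tumours and rose by 3.43 ± 0.17 (adjusted p = 2e-07). Oca2, a melanosomal anion channel, stood at 622 and 576 in the cultures and 7045, 10651, 4749.9 and 6587 in the tumours and rose by 3.54 ± 0.24 (adjusted p = 1.7e-06). Slc45a2, a melanosomal transporter, rose by 1.83 and Rab27a, which moves melanosomes, by 1.78. Tumour 2 was the highest for Trpm1, Oca2 and Slc45a2. For the factor genes Mitf and Sox10, also on this list, the groups overlapped. Mitf stood at 5567 and 5649 in the cultures and 7158, 6810.5, 5531 and 6456 in the tumours. Sox10 stood at 7925.5 and 7792 in the cultures and 5762, 6309, 8632.5 and 7604 in the tumours. The M-box TCATGTG, an MITF motif searched on both strands, was in 6 of 17 windows of 13 matched members (35.3%) and 3.25% of all windows, and the Trpm1 window, with it in capitals, is given for this gene, whose tumours were all far above its cultures.
Trpm1 (chr7:64153685-64153834, plus strand): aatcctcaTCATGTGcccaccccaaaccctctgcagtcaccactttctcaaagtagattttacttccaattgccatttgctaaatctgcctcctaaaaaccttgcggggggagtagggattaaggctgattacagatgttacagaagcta
The match lies 142 bases before the start.

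On the invasive-state list 7 of 17 rose and 4 fell, or 2 without either culture. Axl, a receptor kinase of drug-tolerant melanoma, stood at 620.5 and 601 in the cultures and 5556, 5432, 4138 and 5839.6 in the tumours and rose by 3.09 ± 0.14 (adjusted p = 8.6e-08). Met, the receptor for hepatocyte growth factor, stood at 1409 and 1425 in the cultures and 14200.4, 20396, 11465 and 14161 in the tumours and rose by 3.38 ± 0.19 (adjusted p = 4e-07). Nes, an intermediate filament of neural crest cells, fell, from 4666 and 4724 to 346, 350.2, 691 and 548 (log2 -3.34 ± 0.25, adjusted p = 3.1e-06), and the factor gene Tead4 fell by 2.12 on the log2 scale. The extracellular matrix gene Fn1, also on the collagen and monocyte lists, stood at 2687 and 2586 in the cultures and 1388, 2798, 7935 and 4805 in the tumours; the groups overlapped and it did not pass (0.40 ± 0.52, adjusted p = 0.52). Without tumours 1 and 2, a choice made after seeing the data, it passed at 1.23.

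Cell cycle genes fell. All 22 mitosis genes tested fell, with a median of -1.26, and 22 of 24 replication genes fell, with a median of -1.20. Cenpf, a kinetochore protein, stood at 1924 and 1940.3 in the cultures and 560.2, 429, 376 and 394 in the tumours, a log2 difference of -2.15 ± 0.15 (adjusted p = 2.2e-06). The kinetochore motor Cenpe stood at 1326 and 1327 in the cultures and 289, 172, 133 and 193 in the tumours (-2.80 ± 0.25, adjusted p = 8.9e-06). Spindle genes Kif11 and Nusap1 changed by -1.32 and -1.29. Among replication genes, the helicase subunit Mcm4 stood at 2437 and 2681 in the cultures and 780.2, 754, 1159 and 902 in the tumours (-1.53 ± 0.16, adjusted p = 3e-05), Mcm2 changed by -1.43, the licensing factor Cdc6 by -1.40 and the ribonucleotide reductase subunit Rrm1 by -1.38. Tumour 3 had the highest summed level of both lists and tumour 2 the lowest. No tumour reached a culture in these 8 genes. With sgScramble 21 of 22 mitosis and 23 of 24 replication genes also fell, beside 23.8% of all 12290 genes tested there. The cell cycle homology region TTTGAA was in 8 of 18 mitosis windows (44.4%) and 16% of all windows. An E2F site, TTTCCCGC or TTTGGCGC, was in 5 of 20 replication windows (25%) and 1.3% of all windows, both strands searched.

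Lipid genes split. Of 22 cholesterol synthesis genes 17 rose and none fell, with a median of 1.00. A sterol response element, ATCAC directly followed by CCCAC on either strand, was in 0 of 18 windows of 15 matched members and 0.0731% of all windows. Sqle, squalene epoxidase, stood at 3485 and 3323 in the cultures and 10428, 14580.3, 9529.9 and 8962 in the tumours and rose by 1.65 ± 0.17 (adjusted p = 3e-05). Hsd17b7 and Ebp, of the later steps, rose by 1.57 and 1.17. Tumour 2 was highest for Sqle, Hsd17b7 and Ebp. Of 13 fatty acid genes 3 rose and 5 fell, beside 29.6% and 29.3% of all genes. The lower count was 3 without either culture and without the intensity trend, and 5 rose without tumour 1. The desaturase Scd1 stood at 920.4 and 889 in the cultures and 3198, 3790.3, 2674 and 2331 in the tumours and rose by 1.70 ± 0.17 (adjusted p = 1.9e-05), and Elovl5 rose by 0.73. Fasn, fatty acid synthase, stood at 5458 and 5615 in the cultures and 2828, 3119, 3781 and 3108 in the tumours (-0.79 ± 0.12, adjusted p = 0.00029), and the elongase Elovl6 changed by -1.22.

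Hypoxia and glycolysis genes rose, 24 of 30 tested, with none lower and a median of 0.90. Car9, carbonic anhydrase IX, a classical target of hypoxia-inducible factor, stood at 110.1 and 88.3 in the cultures and 4966, 7013, 6148 and 7167 in the tumours and rose by 5.97 ± 0.16 (adjusted p = 7.9e-09), a fold of 62.8. The lactate exporter Slc16a3 stood at 4.36 and 8.46 in the cultures and 237, 226, 316 and 294 in the tumours and rose by 5.23 ± 0.26 (adjusted p = 2.1e-07). Vegfa, the vessel growth factor, rose by 2.83 ± 0.20 (adjusted p = 2.4e-06) and the glucose transporter Slc2a1 by 2.51 ± 0.22 (adjusted p = 9.8e-06). Slc2a1 was lowest in tumour 1, at 4017, which also had the lowest summed level of the list. The core of the hypoxia response element, ACGTG or its reverse complement, was in 21 of 40 windows of 29 matched members (52.5%) and 16.6% of all windows. In Car9 it lies 18 bases before the start, in capitals here, and the window is shown because Car9 had the largest difference on this list.
Car9 (chr4:43506876-43507025, plus strand): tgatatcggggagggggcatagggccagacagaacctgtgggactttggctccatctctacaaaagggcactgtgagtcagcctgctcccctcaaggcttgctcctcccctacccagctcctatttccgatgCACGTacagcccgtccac

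Stress genes moved in both directions. Of 29 genes of the response to misfolded protein or to ATF4, 11 rose and 6 fell, beside 29.6% and 29.3% of all genes; with tumours 1 and 2 left out together 10 fell. Nupr1 stood at 4.36 and 9.4 in the cultures and 193, 211, 208 and 199 in the tumours and rose by 4.77 ± 0.27 (adjusted p = 4.5e-07), and the factor Ddit3 (CHOP) rose by 1.81 ± 0.11 (adjusted p = 7e-07). The serine synthesis enzymes Phgdh and Psat1, listed here as ATF4 targets, changed by -2.07 and -1.78, with Phgdh at 4998 and 5100.1 in the cultures and 1170.4, 1022, 1508 and 1164 in the tumours. Heat shock genes fell in 9 of 15 cases and rose in 3: the chaperone Hsp90aa1 stood at 32401 and 32925 in the cultures and 10004, 12566, 12512 and 12983 in the tumours (-1.45 ± 0.13, adjusted p = 1.2e-05), and Hsph1 and Hspa4 changed by -1.53 and -0.92. The lower heat shock genes were 6 without culture 1 and 5 without culture 2. Of 18 p53 targets 8 fell and 1 rose. Gdf15, a stress cytokine, changed by -2.08 and Ccng1 by -1.11. Immediate early genes rose in 13 of 19 cases and fell in 2, among them the mRNA decay factor Zfp36 (2.42) and the cytokine inhibitor Socs3 (1.29).

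Ribosomal protein genes fell by a small amount: 21 of 30, none higher, with a median of -0.41. Rps2 stood at 48623 and 47348 in the cultures and 21578, 20018, 24372 and 21272 in the tumours (-1.14 ± 0.13, adjusted p = 5.1e-05). Rpsa, Rps24 and Rpl4 changed by -0.80, -0.78 and -0.66. The count of lower genes was 12 without culture 1 and 13 without culture 2, and equal column sums gave 27. Mitochondrially encoded genes separated the tumours from each other: their summed level was 280357 to 296438 in culture, and 1031406, 870211, 446104 and 423430 in tumours 1 to 4. Of 13 tested, 5 rose, and 8 without tumour 3. mt-Co1, of complex IV, stood at 107787 and 112588 in the cultures and 480882, 426518, 234268 and 200052 in the tumours (1.51 ± 0.36, adjusted p = 0.0051), mt-Co2 at 316 and 334 in the cultures and 3404, 1055, 1329 and 511 in the tumours and mt-Nd4 at 17443 and 18623 in the cultures and 71002, 59435, 25971 and 30909.5 in the tumours. Without culture 1 a single member passed, with mt-Co1 at adjusted p = 0.054, mt-Nd4 at 0.073 and mt-Co2 at 0.057, and without culture 2 it was 3, with mt-Nd4 at 0.057. With tumours 1 and 2 left out together, a choice made after seeing the data, 7 of 11 tested rose and 2 fell, with a median of 0.21.

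Lysosomal genes rose almost throughout. Of 21 tested 20 rose and none fell, with a median of 1.51. The protease Ctsc stood at 179.9 and 149 in the cultures and 1822, 1719.5, 1684 and 1703 in the tumours and rose by 3.39 ± 0.11 (adjusted p = 1.3e-08). Ctsb, an abundant cathepsin, stood at 6433 and 6304 in the cultures and 30729, 35744, 33651 and 31411 in the tumours and rose by 2.37 ± 0.12 (adjusted p = 2e-07). Lgmn, an asparaginyl protease, rose by 1.76. Ctss, the cathepsin that trims the class II invariant chain, was listed only in tumours at 7130.2, 4276, 5615 and 4044. Macrophages are rich in lysosomes, and the part of their genes in the lysosomal differences was not tested. Of 17 matrix genes 6 rose and 5 fell, close to the 29.6% and 29.3% of all genes. The lower count was 2 without either culture and 3 without tumour 4 or the intensity trend, and with a mean of at least 50 required 2 rose. The fibril collagen Col1a1 stood at 49.1 and 41.3 in the cultures and 256, 185, 219 and 144 in the tumours and rose by 2.10 ± 0.23 (adjusted p = 3.8e-05), Col6a3 rose by 2.64, and the basement membrane collagen Col4a2 fell, from 5534 and 5498 to 1021, 1006, 2018 and 1620.4 (-2.03 ± 0.25, adjusted p = 8.3e-05).

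DNA methylation writers and erasers were of interest because the series concerns targeted demethylation. Of 15 tested, 9 fell and 2 rose, with a median of -0.46. The dioxygenase Tet1 stood at 472 and 450.1 in the cultures and 199.7, 209.9, 229.8 and 217 in the tumours (-1.10 ± 0.12, adjusted p = 4.5e-05). Tet3 stood at 1305 and 1432 in the cultures and 922, 727, 783 and 780 in the tumours (-0.77 ± 0.12, adjusted p = 0.00028), while Tet2 rose, at 174 and 189.8 in the cultures and 372, 365, 317 and 355 in the tumours (0.95 ± 0.13, adjusted p = 0.00015). The glycosylase Tdg, which removes oxidised methylcytosine, changed by -0.82. Peg10, an imprinted gene derived from a retrotransposon, stood at 2943 and 2779 in the cultures and 281, 233, 265 and 310.1 in the tumours (-3.40 ± 0.13, adjusted p = 2.9e-08).

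Of the named genes outside the lists, Lgals3, which encodes the galactoside-binding galectin-3, had the largest increase. It stood at 7.63 and 2.82 in the cultures and 5056, 7615, 6807 and 6978 in the tumours and rose by 10.15 ± 0.27 (adjusted p = 7.9e-09). Among decreases, Id3, an inhibitor of basic helix-loop-helix factors, stood at 833 and 815 in the cultures and 6.11, 8.7, 11 and 3.07 in the tumours (-6.76 ± 0.41, adjusted p = 6.8e-07). Ccn4, a WNT-induced matricellular protein, stood at 712 and 774 in the cultures and 4.07, 10.9, 15.6 and 11.3 in the tumours (-6.14 ± 0.42, adjusted p = 1.6e-06). Tg, thyroglobulin, stood at 952 and 941 in the cultures and 22.4, 23.9, 38.5 and 36.8 in the tumours (-4.95 ± 0.25, adjusted p = 2.2e-07). Duox1, which makes hydrogen peroxide, changed by -5.24, Fndc3c1 by -4.80, Clvs1 by -4.56, the factor Glis3 by -4.49, Dpysl3 by -4.44, the alcohol dehydrogenase Adh7 by -4.41 and Mamld1 by -4.40. Every culture lay above every tumour in these 10 lower genes.

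**Figure D4:**
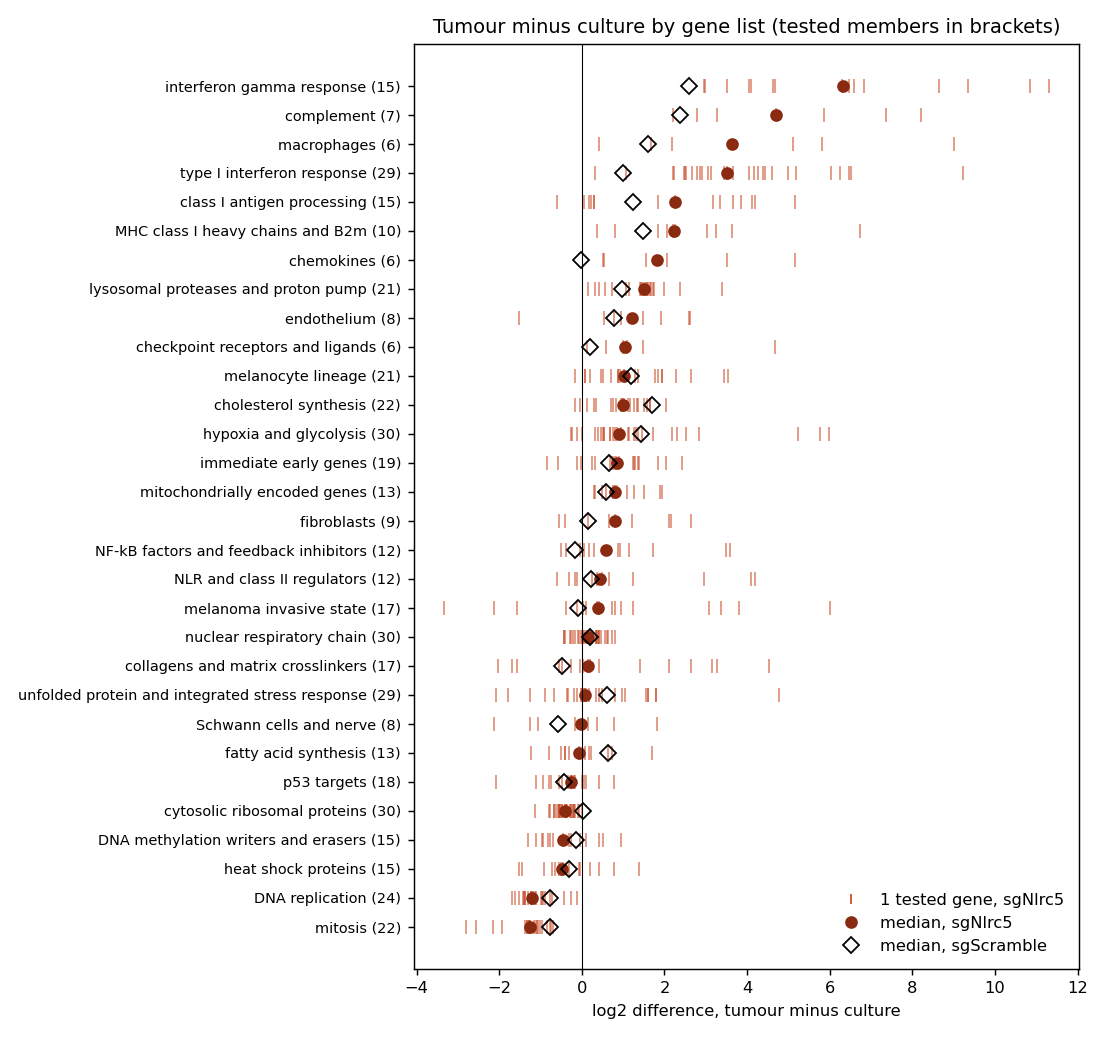
Log2 differences, tumour minus culture, for lists with at least 6 tested members (number in brackets). Bars are single genes with sgNlrc5, filled circles their median and open diamonds the sgScramble median; the sgNlrc5 medians run from 6.31 for interferon gamma genes to -1.26 for mitosis genes.

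The second comparison asked which of these differences were not the same with sgScramble. It was taken as the sgNlrc5 difference minus the sgScramble difference over 12 libraries, so each guide is set against the other within its own table. Of 12290 genes tested, 2739 (22.3%) passed, 1360 with a higher (11.1%) and 1379 with a lower (11.2%) difference in sgNlrc5 cells. With a culture library left out, the count was 1605 without sgNlrc5 culture 1, 1630 without sgNlrc5 culture 2, 1541 without sgScramble culture 1 and 1552 without sgScramble culture 2. Array weights gave 4273. The sgNlrc5 libraries enter both comparisons.

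Interferon genes differed between the guides. The difference was larger with sgNlrc5, beside 11.1% of all genes, for 25 of 29 type I members and 13 of 15 interferon gamma members, and smaller for none; the sgScramble medians were 0.99 and 2.60, against 3.51 and 6.31. On recovered reads with voom it was larger for 4 of the 15. Leukocyte genes were higher in sgNlrc5 than in sgScramble tumours, but few of them could be tested for the difference. It was larger with sgNlrc5 for 1 of 4 pan-leukocyte genes tested (medians 4.77 and 3.97). It was also larger for 3 of 6 macrophage genes (medians 3.64 and 1.61), 1 of 1 T cell gene and 2 of 2 class II genes. None of these lists had a smaller difference. Summed over the genes listed in the tumour table, in the authors' normalised counts, the 14 pan-leukocyte genes were at 7799 to 10004 in sgNlrc5 tumours and 3026 to 4981 in sgScramble tumours. The 24 macrophage genes were at 59429 to 80450 and 32874 to 37635, and the 20 T cell genes at 1134 to 2659 and 268 to 441. The 8 class II genes were at 33534 to 57667 and 2681 to 10919, with no overlap in any of the 4 lists. Most of the macrophage sum came from the 6 genes that cultures also held. In rescaled normalised counts these 6 were at 50465 to 71626 in sgNlrc5 tumours and 14731 to 15128 in sgNlrc5 cultures. The part of the 4 lists in the differences between the guides was not tested. The sgScramble cultures stood above the sgNlrc5 cultures in several of the interferon genes, which the difference includes. Ifi27 averaged 2834 in sgScramble cultures and 3045 in sgScramble tumours, against 470 and 556 in the cultures and 5282, 5244, 5418 and 6345 in the tumours with sgNlrc5. Its difference exceeded that of sgScramble by 3.35 ± 0.25 (adjusted p = 5.8e-07). For Oas1a the excess was 4.91 ± 0.32 (adjusted p = 3.4e-07), for Xaf1 4.0 ± 0.38 (adjusted p = 5.2e-06) and for Trim30a 5.19 ± 0.37 (adjusted p = 5.1e-07). Igtp averaged 146 and 2758 with sgScramble (excess 4.75 ± 0.75, adjusted p = 0.0004), and Irgm2 237 and 1273 (excess 4.09 ± 0.56, adjusted p = 0.00014). For Gbp7, Tgtp2, Iigp1, Oas2 and Sp100, which had 0 to 2 reads in the sgNlrc5 cultures, the excess of 4.25, 5.10, 4.59, 6.40 and 6.12 depends on the pseudocount. On recovered reads with voom, Igtp (adjusted p = 0.086), Gbp7 (0.18), Tgtp2 (0.23) and Iigp1 (0.37) did not pass. Cxcl10 exceeded by 3.33 ± 0.35 (adjusted p = 1.8e-05) and C4b by 3.47 ± 0.57 (adjusted p = 0.00061), though voom gave 0.16 for C4b.

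For class I genes the counts were smaller. The difference was larger with sgNlrc5 for 4 of 10 class I members and 6 of 15 processing genes, and smaller for none. It was 2 of 10 class I members without sgNlrc5 culture 1 or either sgScramble culture, with 1 smaller without sgScramble culture 1. It was 3 of 15 processing genes without any 1 of the 4 cultures, without sgScramble tumour 3 or without the intensity trend and 2 with voom, and in several settings 1 to 3 processing genes were smaller. H2-D1, which averaged 127 in sgScramble cultures and 1247 in sgScramble tumours, rose by 3.25 there against 3.03 with sgNlrc5, a difference of -0.22 ± 0.28 (adjusted p = 0.63). The levels were thus far apart in both settings, and a difference in the rise was not shown. H2-T22 averaged 948 and 2928 with sgScramble, and its excess was 1.70 ± 0.36 (adjusted p = 0.0034). H2-T10, Fcgrt, Hfe, Tap2 and Tapbpl exceeded by 1.93, 0.64, 0.59, 2.23 and 1.67. Of these, H2-T10 was lost without sgNlrc5 culture 1 (adjusted p = 0.091), without sgScramble culture 1 (0.094) and with voom (0.23), and Tap2 with voom (0.097). Fcgrt was lost without sgNlrc5 culture 2 (0.067) or sgScramble culture 2 (0.065). Hfe was lost without sgNlrc5 culture 1 (0.17), sgScramble cultures 1 (0.09) and 2 (0.1), sgNlrc5 tumour 4 (0.05) and sgScramble tumour 2 (0.053). Tapbpl was lost without any 1 of the 4 cultures (0.1 to 0.12), sgNlrc5 tumour 2 (0.06) or 4 (0.059), sgScramble tumour 3 (0.06), and in 4 other settings. Nlrc5 itself differed by -0.75 ± 0.42 (adjusted p = 0.22), without passing. It passed without sgScramble tumour 2, at -1.10 (adjusted p = 0.0016), the 1 setting of those run in which it did. Cd274 exceeded by 1.62 ± 0.46 (adjusted p = 0.02), which was lost without sgNlrc5 culture 1 (0.081) or 2 (0.057) and sgScramble culture 1 (0.11), without the intensity trend (0.059) and with voom (0.25).

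Other groups differed by guide as well. Cholesterol genes rose less with sgNlrc5 for 13 of 22 members (medians 1.00 and 1.70), hypoxia genes for 11 of 30 (0.90 and 1.42) and fatty acid genes for 8 of 13. The hypoxia count was 5 without sgNlrc5 culture 1, 7 without sgScramble culture 1 and 17 with array weights, and the fatty acid count 5 without either sgNlrc5 culture or sgScramble culture 1. Car9 was not shown to differ (-0.16 ± 0.26, adjusted p = 0.7), while Slc16a3 exceeded by 2.78 ± 0.48 (adjusted p = 0.00095). Fasn was at 0.31 with sgScramble, which did not pass, and fell with sgNlrc5, a difference of -1.10 ± 0.20 (adjusted p = 0.0012), and Scd1 exceeded by 0.75 ± 0.21 (adjusted p = 0.018), which was lost without any 1 of the cultures (adjusted p = 0.061 to 0.076) and without the intensity trend (0.054). Ribosomal protein genes were lower against sgScramble for 11 of 30, with a sgScramble median of 0.03; the count was 4 without either sgNlrc5 culture, 5 and 3 without sgScramble cultures 1 and 2, and 19 with array weights. Rps2 differed by -0.68 ± 0.18 (adjusted p = 0.012), and was lost without sgNlrc5 culture 1 (0.062), sgNlrc5 culture 2 (0.05) and sgScramble cultures 1 (0.056) and 2 (0.059). Lysosomal genes exceeded for 14 of 21, but for 7 without any 1 of the cultures, 9 without sgScramble tumour 2 and 8 without the intensity trend. Ctsb exceeded by 0.79 ± 0.15 (adjusted p = 0.0019). Cenpf fell further, with a difference of -1.37 ± 0.18 (adjusted p = 0.00013), and 6 of 22 mitosis genes did so. Lyz2 exceeded by 4.05 ± 0.37 (adjusted p = 4.3e-06), whereas Lgals3 was not shown to differ (0.40 ± 0.48, adjusted p = 0.59). Axl averaged 1327 and 1279 with sgScramble and was not called there (-0.10); the excess was 3.19 ± 0.29 (adjusted p = 3.2e-06). Met rose by 3.29 with sgScramble and 3.38 with sgNlrc5, a difference of 0.09 ± 0.27 (adjusted p = 0.85). Tet1 rose with sgScramble (0.52) and fell with sgNlrc5, a difference of -1.62 ± 0.15 (adjusted p = 5.6e-06).

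Some genes went in opposite directions. Ccl5 fell in sgScramble tumours, from 291 to 36 (-3.13), and rose with sgNlrc5, a difference of 4.68 ± 0.55 (adjusted p = 4.2e-05). Neurl3, a ubiquitin ligase, fell with sgScramble as well: it averaged 161 in sgScramble cultures and 30.8 in sgScramble tumours, and with sgNlrc5 stood at 1.09 and 1.88 in the cultures and 146, 100.1, 82.4 and 95.2 in the tumours (difference 7.90 ± 0.54, adjusted p = 4.3e-07). The orphan receptor Gpr176 was not called with sgScramble (-0.93) and with sgNlrc5 went from 0 and 1.88 to 129, 119.6, 136 and 117 (difference 7.16 ± 0.93, adjusted p = 9.3e-05). Itpripl2 stood at 10.9 and 7.52 in the cultures and 167, 127, 135 and 131 in the tumours with sgNlrc5 and averaged 871 and 159.7 with sgScramble (difference 6.69 ± 0.73, adjusted p = 2.2e-05). The exporter Abcc2 stood at 4.36 and 4.7 in the cultures and 161, 276, 194 and 289.7 in the tumours (difference 5.80 ± 0.49, adjusted p = 1.8e-06). Neurl3 and Gpr176 had 3 and 2 reads in the sgNlrc5 cultures together, so the size of their difference depends on the pseudocount.

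In the opposite direction, Prxl2a averaged 4.17 in sgScramble cultures and 530.1 in sgScramble tumours, and stood at 114 and 103 in the cultures and 259, 188, 151 and 149 in the tumours with sgNlrc5 (difference -5.93 ± 0.32, adjusted p = 8.9e-08). Its own sgNlrc5 call was lost without culture 1 (adjusted p = 0.059) or culture 2 (0.11) and with quantile normalisation (0.076). Mfsd13a differed by -5.72, Wfikkn2, a growth factor inhibitor, by -4.64, the reticulocalbin Rcn3 by -4.60 and the kinase Pak3 by -4.26. In each of these 5 genes the sgScramble cultures had the lower mean, for Mfsd13a and Rcn3 0.461 and 1.86, so that their size depends on the pseudocount too.

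**Figure D5:**
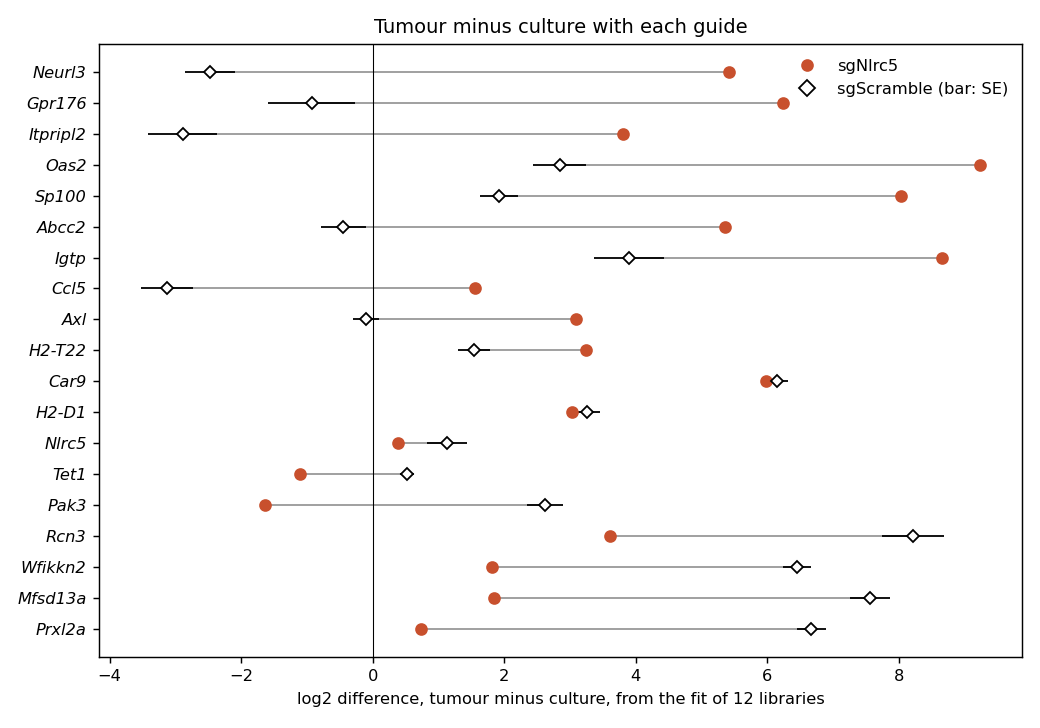
Log2 differences, tumour minus culture, from 1 fit of 12 libraries for 19 genes, with filled circles for sgNlrc5, open diamonds for sgScramble and bars for the sgScramble standard error. Car9 and H2-D1 nearly coincide, Neurl3, Gpr176 and Itpripl2 are far higher with sgNlrc5, and Prxl2a and Mfsd13a are far lower.

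The 4 sgNlrc5 tumours were not alike in every gene. Among genes with a mean of at least 100 in tumours, predicted genes, pseudogenes and immune receptor segments aside, the widest spread was in Mir99ahg, a host transcript of microRNAs, at 504, 232, 83.3 and 65.5, against 45.8 and 56.4 in culture, and it did not pass (1.63 ± 0.66, adjusted p = 0.056). Apart from the replicate block it passed without tumour 3 (adjusted p = 0.025) or tumour 4 (0.016), with array weights (0.01) and with all 12 libraries (0.034). Megf10, an engulfment receptor, was at 101, 172, 537 and 388, overlapping the cultures at 93.8 and 122, and of the settings run it passed without tumour 1 (0.006), with array weights (0.019) and without tumours 1 and 2 together (8.1e-06). Col18a1, a vascular collagen, was at 57, 63.1, 271 and 167 and rose by 3.28 ± 0.58 (adjusted p = 0.00083). The hypoxia-linked Ndufa4l2 was at 158, 278, 603 and 656 (2.99 ± 0.48, adjusted p = 0.00045) and Apln, a vessel peptide, at 116, 213, 372 and 545 (2.60 ± 0.48, adjusted p = 0.0011). In Megf10, Col18a1, Ndufa4l2 and Apln tumours 3 and 4 were the higher pair. Timp4, a metalloproteinase inhibitor, was at 31.6, 183, 116 and 112, lowest in tumour 1, and rose by 2.10 ± 0.56 (adjusted p = 0.0083); it was lost without culture 1 (0.065) and with voom (0.055).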

How the data were processed

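RNA of 16 libraries was sequenced, of which the 6 sgNlrc5 TDMa libraries and, for comparison, 6 sgScramble TDMa libraries were used. Libraries were made with a NEBNext Ultra II Directional kit, per the labels. DESeq2 1.36.0, STAR 2.7.10a and FastQC 0.12.0 are listed in the submitters' processing notes, with mm39 (GRCm39) as the build. The sources used here do not say whether counting used strand. The authors deposited log2(normalised count + 1) values, as the tables' names state, with 1 table for cultures and 1 for tumours, so normalisation was separate. The deposited log2 values were taken back to counts (2 to the power of the value, minus 1) and rescaled over shared genes by the median of ratios. Whole reads were recovered from their steps, 100% of values up to 2000 reads lying within 0.1 of a whole number, and 12183889 to 15898495 per sgNlrc5 library. 

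Genes listed in both tables with a mean of at least 10 were tested on log2(value + 1) with limma 3.58.1 in R 4.3.3 (intensity trend, Benjamini-Hochberg, adjusted p below 0.05), on 6 libraries, or 12 for the difference from sgScramble. Named genes were Nlrc5, the tested class I genes, the largest differences, the smallest p values in each of 47 gene lists, the most variable genes and the highest genes listed only in tumours, and not every gene so chosen is reported here. The members and lists were chosen with earlier results of these data known. On simulated data with 200 changed genes, the direct test called 30%, 70.4% and 93.9% of log2 changes of 0.5, 1 and 2 over 12317 genes. The difference test called 14.3%, 61.5% and 87.5% over 12276. False calls were 9 of 133 and 8 of 120. In the libraries themselves 58.9% and 22.3% of genes passed, far more than were changed in the simulation. These rates need not hold for them. Alternatives covered scaling, pseudocount, filter, trend, weights, voom, a replicate block and left-out libraries.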

Additional observations from a re-analysis of the deposited data

Results flagged for a closer look

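In 13 of 208 groups of 4 tumours examined, 1 tumour stood apart from the other 3 by Dixon's 95% criterion, which chance meets in about 1 of 20 groups. Tumour 1 was high for Cxcl16 at 254.65, for Fcer1g at 835.26, for the imprinted Plagl1 at 10014.9 and for the summed pan-leukocyte genes at 10162.6. It was low for Slc2a1 at 4017.4, Hsp90aa1 at 10003.7, S100b at 4630.6 and Socs3 at 499.12. Tumour 3 was low for the complement protease C1ra at 811.33, Havcr2 at 88.825 and Pak3 at 25.64, and high for Tdg at 1032. Tumour 4 was high for Ifi27 at 6345.3. All are rescaled normalised counts.

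For 39 of the 44 genes whose difference from sgScramble was examined, the test of that difference passed, with limma's moderated test and Benjamini-Hochberg adjustment over 12290 genes (22.3% of which passed). Some of the 44 were chosen because this same test had called them, so their passing was fixed in advance. The 39 of 44 therefore cannot be compared with the 22.3%. The values are sgNlrc5 minus sgScramble, on the log2 scale. Among class I and processing genes they were 1.70 for H2-T22, 1.93 for H2-T10, 0.64 for Fcgrt, 0.59 for Hfe, 2.23 for Tap2 and 1.67 for Tapbpl. Among interferon genes they were 4.91 for Oas1a, 4.0 for Xaf1, 5.19 for Trim30a, 3.35 for Ifi27 and 6.40 for Oas2. For Sp100, which is not on the interferon lists, the value was 6.12. The GTPases Igtp, Irgm2, Gbp7, Iigp1 and Tgtp2 were at 4.75, 4.09, 4.25, 4.59 and 5.10. Cxcl10, Ccl5, C4b and Cd274 were at 3.33, 4.68, 3.47 and 1.62.

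In other groups the values were 4.05 for Lyz2, 3.19 for Axl, 0.75 for Scd1, 2.78 for Slc16a3 and 0.79 for Ctsb, and negative at -1.37 for Cenpf, -1.10 for Fasn, -0.68 for Rps2 and -1.62 for Tet1. The genes chosen for the size of this difference were Neurl3 at 7.90, Gpr176 at 7.16, Itpripl2 at 6.69 and Abcc2 at 5.80, and in the other direction Prxl2a at -5.93, Mfsd13a at -5.72, Wfikkn2 at -4.64, Rcn3 at -4.60 and Pak3 at -4.26.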

How the results depend on the processing

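The count of 7261 genes in the direct comparison stayed within 1.5 times in every alternative run, from 5131 without sgNlrc5 culture 2 to 8243 with array weights, though its 3607 lower genes fell to 2370 without that culture. Leaving out 1 library gave 5131 to 7423, and 1541 to 3148 for the 2739 genes that differed from sgScramble, which array weights raised to 4273. Of the 2059 genes listed only in tumours, 1387 had a mean of at least 10, 479 of at least 50 and 302 of at least 100. The cause of these moves was not tested, except that leaving out a culture leaves 1 library in that group, assumed to vary like the rest. Replicate numbers did not pair cultures with tumours (correlations of deviations 0.0035 and -0.0023). A replicate block gave 7641 and 2405 genes. With sgNlrc5, replicate numbers 3 and 4 occur only among tumours. In the direct comparison the block therefore set only tumours 1 and 2 against the 2 cultures. There 12 of 13 mitochondrially encoded genes were higher (median 1.54), and these 2 tumours had the highest summed level of that list. The block also called Mir99ahg (2.73, adjusted p = 3.4e-05) and Piwil2 (-0.55, adjusted p = 0.0011). Of 153 named genes called in the direct comparison, 143 were called in every alternative and 10 lost the call in at least 1. For the difference from sgScramble it was 26 and 13 of 39. Many of these genes were named for a small p or a large difference in these same tests, so keeping the call was partly fixed in advance. These counts do not measure how stable the calls of all genes were. No named gene reversed in any alternative run. edgeR and DESeq2, planned as alternatives, were not run because the deposited unit is log2, and voom on recovered reads was run. With tumours 1 and 2 left out together, chosen after seeing the data, the counts were 7899 and 3186. Reads of close copies and of overlapping genes limit single values, and 2 cultures limit every test.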

Other observations

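Genes of vessel, nerve and smooth muscle lists were also present in the cultures, and they did not move one way. Of 8 endothelial genes tested 6 rose and 1 fell. Vwf, encoding von Willebrand factor, stood at 1256 and 1229.9 in the cultures and 4726, 5313, 4034 and 4647 in the tumours and rose by 1.90 ± 0.11 (adjusted p = 7e-07), and Prox1, a lymphatic regulator, at 199.6 and 151 in the cultures and 72.3, 50, 65 and 53.2 in the tumours (-1.53 ± 0.22, adjusted p = 0.00023). Ramp2, a receptor partner for adrenomedullin, rose by 1.48 and the lymphatic receptor Flt4 by 2.62. Of 8 Schwann cell and nerve genes 3 rose and 3 fell, beside 29.6% and 29.3% of all genes. Mbp, a myelin protein that neural crest cells can express, stood at 15451 and 15752 in the cultures and 3122, 3175, 4202 and 3840.5 in the tumours, a log2 difference of -2.13 ± 0.13 (adjusted p = 9.1e-07). S100b, a calcium sensor of glia and melanocytes, stood at 1437 and 1391 in the cultures and 4631, 5198, 5147 and 5132 in the tumours and rose by 1.83 ± 0.094 (adjusted p = 2.3e-07), and the cadherin Cdh19 rose by 0.77. Of 5 pericyte genes 1 rose and 1 fell: Myh11, a smooth muscle myosin, by 1.90 and the adhesion gene Mcam by -1.30. Des, for desmin, stood at 349 and 305 in the cultures and 292, 273, 398 and 403 in the tumours and did not pass (0.04 ± 0.18, adjusted p = 0.85). With tumours 1 and 2 left out together, a choice made after seeing the data, it passed at 0.30 (adjusted p = 0.038).

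Nuclear genes of the respiratory chain rose in 10 of 30 cases and fell in 5, a share of increases near the 29.6% of all genes. None fell without either culture, 3 fell without tumour 4, with upper quartile scaling or without the intensity trend, and equal column sums gave 6 higher and 6 lower. Cox4i1, of complex IV, stood at 5067 and 5080.4 in the cultures and 9835, 10035, 8033 and 7891 in the tumours and rose by 0.81 ± 0.13 (adjusted p = 0.00037), with tumours 1 and 2 the higher pair. Ndufs3, of complex I, rose by 0.64 ± 0.089 (adjusted p = 0.00017) and Sdhb by 0.55. Germline genes known to be silenced by methylation were mostly in neither table: of 22, 16 were not listed, 3 were listed only in tumours, and 2 of 3 tested rose. Tex101, a testis surface protein, stood at 10.9 and 8.46 in the cultures and 82.5, 91.4, 83.3 and 67.6 in the tumours and rose by 2.95 ± 0.26 (adjusted p = 8.9e-06). Rhox5, a homeobox gene of the germline, stood at 150.5 and 140 in the cultures and 422, 231, 241 and 199.6 in the tumours and rose by 0.84 ± 0.26 (adjusted p = 0.017), a call lost without culture 1 (adjusted p = 0.063) or 2 (0.094) and with all 12 libraries in the fit (0.18). Piwil2, of the piRNA pathway, stood at 1251 and 1290.1 in the cultures and 814, 921, 1166 and 1166 in the tumours; the tumours lay below the cultures without passing (-0.34 ± 0.15, adjusted p = 0.077), and apart from the replicate block it passed with equal column sums (0.021), array weights (0.019), all 12 libraries (0.042), and without tumour 3 (0.033) or 4 (0.047). Of the other imprinted genes tested, Igf2r changed by -0.63 and Impact by 0.63 (lost without culture 1, adjusted p = 0.081, or 2, 0.069), and Plagl1 was at 0.13 and did not pass.

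Of 14 dendritic cell genes, 9 were listed only in tumours, among them the integrin gene Itgax at 327, 247, 142 and 108 and the lectin gene Clec10a at 233, 126, 109 and 77.8. Of the 4 listed in both tables, 3 were lower in tumours: Fscn1 by -0.68, Batf3 by -0.94 and Zbtb46 by -0.67. The call for Zbtb46 was lost without culture 1 (adjusted p = 0.11) or 2 (0.061). Bst2, an interferon-induced tether on the same list, stood at 1614 and 1485 in the cultures and 15758, 14152, 10016 and 12284 in the tumours and rose by 3.05 ± 0.16 (adjusted p = 3.1e-07). Fibroblast genes rose in 6 of 9 cases and fell in 1, beside 29.6% and 29.3% of all genes. Among those that rose were Fbln1 by 0.80 and Serpinf1 by 1.22. Vcan, for versican, stood at 9.81 and 6.58 in the cultures and 55, 89.2, 39.4 and 48.1 in the tumours and rose by 2.64 ± 0.37 (adjusted p = 0.00018). Hdc, which makes histamine, rose by 1.66, which was lost without culture 1 (adjusted p = 0.065) or 2 (0.054), and Gata2 was at 124 and 173 in the cultures and 165, 135, 146 and 143 in the tumours, with overlapping groups.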
